A study of Mus musculus with 99 samples.

Results

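The 10 genes described here mark the endothelium of the blood-brain barrier in mouse brain and its traffic of nutrients and drugs. They are the junction and adhesion genes Cldn5 and Pecam1, the growth factor receptors Flt1, Kdr and Tek, the uptake carriers Slc2a1, Mfsd2a and Slco1a4, and the drug efflux pumps Abcb1a and Abcg2. The rule names them by symbol and uses no measured value. GENCODE symbols found all 10 of 10 among the 55335 gene identifiers counted in every library.

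Capillary endothelial cells of the brain are sealed to each other by tight junctions, so that solutes must pass through the cells. Carriers in the cell membrane bring in glucose and lipids, while ATP-driven pumps return many drugs, opioids among them, to the blood. Growth factors made by neurons and glia act on endothelial receptors to build and maintain these vessels.

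In the GENCODE M21 annotation of GRCm38 all 10 are protein-coding genes, counted over their exons. The junction genes were Cldn5 (ENSMUSG00000041378) at chr16:18776847-18778262 on the plus strand and Pecam1 (ENSMUSG00000020717) at chr11:106654217-106750628 on the minus strand. The receptors were Flt1 (ENSMUSG00000029648) at chr5:147561604-147726011 on the minus strand, Kdr (ENSMUSG00000062960) at chr5:75932827-75978458 on the minus strand and Tek (ENSMUSG00000006386) at chr4:94739289-94874976 on the plus strand. The uptake carriers were Slc2a1 (ENSMUSG00000028645) at chr4:119108711-119137983 on the plus strand, Mfsd2a (ENSMUSG00000028655) at chr4:122946850-122961188 on the minus strand and Slco1a4 (ENSMUSG00000030237) at chr6:141805440-141856199 on the minus strand. The pumps were Abcb1a (ENSMUSG00000040584) at chr5:8660077-8748575 on the plus strand and Abcg2 (ENSMUSG00000029802) at chr6:58584523-58695676 on the plus strand.

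The study measured RNA by sequencing in tissue punches from 5 brain regions of juvenile wildtype mice. Punches came from the midbrain (ventral tegmental area, VTA), the thalamus (ventrobasal part, VBT), the cortex (somatosensory, S1, and prelimbic, PrL) and the ventral striatum (nucleus accumbens, NAc). The exposed mice were offspring of C57BL/6 dams that drank 10 µg/ml fentanyl, an opioid, from embryonic day 0 until weaning, and the controls came from dams given water. Both sexes were sampled in each region and exposure, which gave 20 groups of 5 libraries, except 4 for S1 male water. The labels do not say whether the 5 libraries of a group came from separate animals or litters, so p-values measure only the spread between these samples. They also do not say whether punches of different regions with the same number came from the same animals.

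Each library was made from 10 ng of total RNA, and the 98 libraries used held 23032078 to 52069639 reads counted to genes. VTA male water 3 was left out of every comparison, since 6333 genes were detected there against at least 24079 in each other library. In that library 6 of the 10 genes had no read, Pecam1 had 2, Cldn5 had 191, Slc2a1 had 1855 and Slco1a4 had 2424. In the kept libraries every one of the 10 genes had at least 271 reads. Marker genes of the dissected regions were present as labelled: the summed level of 6 VTA markers (Th, Slc6a3, Slc18a2, En1, Pitx3 and Foxa2) ran from 334.8 to 1732.8 CPM (the reads of a gene per 1e+06 reads counted to genes) in VTA libraries and stayed at or under 69.3 CPM elsewhere. Cortical markers were less clean, reaching 1373 CPM in NAc libraries against 1245 to 2191 CPM in S1 and PrL. PrL female water 5 and PrL male water 3 held olfactory bulb markers. None of the 10 genes was called between fentanyl and water in PrL with or without them. Genes called in the PrL mean over the sexes went from 133 to 66 without them. The samples are bulk tissue, so fewer endothelial cells and less RNA per endothelial cell cannot be told apart.

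VTA libraries split by base composition. The GC trend of a library is the Spearman rho, taken over genes, of its log ratio to the region mean with the GC content of the gene. It was between 0.608 and 0.721 in the 4 VTA male water libraries, 0.736 and 0.607 in VTA female water 4 and 5, and between -0.382 and -0.277 in VTA female water 1 to 3. In the fentanyl libraries of the VTA it ran from -0.641 to 0.044 in females and from -0.580 to -0.139 in males. The male groups did not overlap (exact permutation test, two-sided, p = 0.0159, the smallest this design can give, and adjusted p = 0.423 over 160 tests of library measures). The calls of the 10 genes in the VTA are therefore also given with an offset for GC content.

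The 10 transcripts differ in composition over the range that this trend touches. GC content of the longest transcript was 60.5% for Cldn5, 54.2% for Mfsd2a and 54.0% for Slc2a1, against 45.2% for Abcb1a, 40.3% for Slco1a4 and 39.2% for Abcg2. The first 150 coding bases of a GC-rich pair and a GC-poor pair (GENCODE M21 transcripts, GRCm38, 5′ to 3′, G and C in capitals) show this difference in composition:
Cldn5: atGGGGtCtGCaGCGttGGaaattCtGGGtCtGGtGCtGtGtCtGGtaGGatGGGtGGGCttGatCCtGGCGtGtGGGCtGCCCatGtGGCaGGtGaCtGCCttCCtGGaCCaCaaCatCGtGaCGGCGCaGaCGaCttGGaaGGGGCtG
Slc2a1: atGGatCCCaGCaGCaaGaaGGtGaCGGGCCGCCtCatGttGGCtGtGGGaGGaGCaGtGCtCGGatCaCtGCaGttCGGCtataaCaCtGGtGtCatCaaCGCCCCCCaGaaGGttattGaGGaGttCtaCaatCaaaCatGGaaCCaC
Slco1a4: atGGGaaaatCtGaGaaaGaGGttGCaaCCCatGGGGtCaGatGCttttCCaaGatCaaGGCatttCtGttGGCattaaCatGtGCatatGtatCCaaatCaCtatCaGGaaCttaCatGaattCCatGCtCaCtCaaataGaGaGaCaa
Abcg2: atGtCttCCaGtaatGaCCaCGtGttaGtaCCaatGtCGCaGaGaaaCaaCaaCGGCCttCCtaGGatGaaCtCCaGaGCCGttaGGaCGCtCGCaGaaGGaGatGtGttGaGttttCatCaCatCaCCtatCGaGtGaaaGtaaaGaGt
GC content of these stretches was 60.7% for Cldn5, 54.0% for Slc2a1, 40.0% for Slco1a4 and 46.0% for Abcg2. The same stretch had more than Slc2a1 in Mfsd2a (57.3%), Pecam1 (55.3%) and Kdr (54.7%), and less than Abcg2 in Abcb1a (42.0%). Over the whole coding sequence GC content was 63.8% for Cldn5, 56.9% for Slc2a1, 42.4% for Slco1a4 and 43.4% for Abcg2.

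In the water libraries all 10 genes differed between regions. Slc2a1, the glucose carrier GLUT1, had its highest means in VTA and VBT. Mfsd2a, which carries lysophosphatidylcholine-bound omega-3 fatty acid into brain, had its highest mean in VBT. Slco1a4, an organic anion transporter, had its highest mean in S1. All 10 of 10 genes passed the test over the 5 regions (edgeR's quasi-likelihood test with Benjamini-Hochberg adjustment, adjusted p from 4.83e-16 for Mfsd2a to 0.00746 for Kdr), but so did 90.7% of all 21468 genes tested. Differing by region therefore does not set these genes apart.

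Slc2a1 had 119, 136 and 164 CPM (lowest, median and highest of 9 libraries) in the VTA and 104, 129 and 151 CPM in 10 VBT libraries. It had 68.1, 98.2 and 111 CPM in S1, 60.4, 70.8 and 87.6 CPM in PrL, and 64.4, 72.3 and 107 CPM in NAc. Every VTA and VBT library lay above every PrL library. Slc2a1 was higher in VBT than in PrL by a log2 difference of 0.87 (SE 0.09, edgeR adjusted p = 1.3e-11) and 0.58 higher than in S1 (SE 0.09, adjusted p = 4.4e-07), while VTA and VBT differed by -0.04 (SE 0.09, adjusted p = 0.74), and by -0.25 with the GC offset (adjusted p = 0.0233).

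Mfsd2a had 23.8, 26.6 and 29 CPM in VBT and 20, 22.1 and 28.9 CPM in the VTA. It had 13.4, 16.1 and 20.5 CPM in S1, 12, 16.1 and 18.7 CPM in PrL, and 12.6, 13.6 and 17.5 CPM in NAc. No VBT library reached down to the range of S1, PrL or NAc. The log2 difference was 1.03 for VBT over NAc (SE 0.08, edgeR adjusted p = 1.5e-15), 0.75 for VBT over S1 (SE 0.08, adjusted p = 3.6e-11) and -0.31 for VTA against VBT (SE 0.08, adjusted p = 0.0012), which became -0.51 with the GC offset (adjusted p = 4.42e-06).

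Cldn5, the main claudin of brain endothelial tight junctions, had 29.5, 49.8 and 60.9 CPM in VBT, and from 22.8 to 70.2 CPM in the VTA. Its ranges were 29.8 to 48.6 CPM in S1, 24.6 to 41.9 CPM in PrL and 24.6 to 43.1 CPM in NAc, so all regions overlapped. In S1, PrL and NAc every male water library lay above every female one. Male and female ranges were 38.2 to 48.6 and 29.8 to 36.5 CPM in S1. They were 32.5 to 41.9 and 24.6 to 31.2 CPM in PrL, and 33.0 to 43.1 and 24.6 to 32.6 CPM in NAc. This difference was not tested. Cldn5 was higher in VBT than in PrL by a log2 difference of 0.59 (SE 0.11, edgeR adjusted p = 1.6e-05) and 0.35 higher than in S1 (SE 0.12, adjusted p = 0.0069). The difference of 0.29 between VTA and S1 (SE 0.12, edgeR adjusted p = 0.029) was -0.01 with the GC offset (adjusted p = 0.92).

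Slco1a4 had another order of means. It had 76.7, 102 and 124 CPM in S1, 71.3, 84.4 and 95.6 CPM in VBT, and 67.6, 76.5 and 117 CPM in the VTA, against 59.2 to 85.7 CPM in PrL and 57.2 to 87.6 CPM in NAc. The S1 range overlapped that of every other region. Slco1a4 was 0.55 higher in S1 than in PrL (log2, SE 0.10, edgeR adjusted p = 1.3e-05), and the VTA was 0.37 below S1 (SE 0.10, adjusted p = 0.0010). The call of S1 over VBT, a VBT minus S1 difference of -0.24 (SE 0.10, edgeR adjusted p = 0.025), turned to 0.08 with the GC offset (adjusted p = 0.41).

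Both efflux pumps had their lowest mean in NAc. Abcb1a encodes one of the mouse P-glycoproteins, and Abcg2 the breast cancer resistance protein. Abcb1a had 29.2, 36.8 and 48.1 CPM in NAc and 33.2, 37.7 and 53.4 CPM in PrL, against 47.7, 54.1 and 70.0 CPM in S1, 44.9 to 61.0 CPM in VBT and 47.4 to 61.1 CPM in the VTA. It was 0.68 higher in S1 than in NAc (log2, SE 0.08, edgeR adjusted p = 5.5e-10), while VTA, VBT and S1 did not differ past the threshold (adjusted p from 0.067 to 0.70). With the GC offset Abcb1a was lower in the VTA than in VBT (-0.36, edgeR adjusted p = 0.000149) and than in S1 (-0.22, adjusted p = 0.0174). Abcg2 ran from 12.3 to 21.8 CPM in NAc, from 14.1 to 19.7 CPM in VBT and from 20.1 to 29.1 CPM in S1, with no overlap between VBT and S1. It was 0.67 higher in S1 than in NAc (SE 0.10, edgeR adjusted p = 1.2e-07) and 0.38 lower in VBT than in S1 (SE 0.10, adjusted p = 0.00054). The VBT minus S1 difference of Abcg2 was -0.01 with the GC offset (edgeR adjusted p = 0.907), so that call was lost, and that of Abcb1a was -0.03 without it (SE 0.08).

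Among the receptors, Flt1 encodes VEGF receptor 1, Kdr the main signalling VEGF receptor of endothelium, and Tek the angiopoietin receptor Tie2. Flt1 had 92.6 to 109 CPM in the VTA, 93.4 to 109 CPM in VBT and 83.0 to 108 CPM in S1, all above the 66.2 to 80.6 CPM of PrL, and 56.1 to 83.4 CPM in NAc. Tek had 23.7 to 30.6 CPM in the VTA, 22.4 to 29.1 CPM in VBT and 21.9 to 29.8 CPM in S1, all above the 16.8 to 20.7 CPM of NAc, while the 14.7 to 24.3 CPM of PrL overlapped each of them. Kdr had the fewest calls by region. It ran from a mean of 24.8 ± 4.46 CPM in NAc (SD, n = 10) to 30.7 ± 7.58 CPM in S1 (SD, n = 9), and 2 of its 10 region pairs passed edgeR's test, VBT and S1 each over NAc. Kdr also passed with the GC offset, as lower in the VTA than in VBT and S1 and higher in VBT than in PrL. Pecam1, an adhesion molecule of endothelial junctions, had a mean of 34.2 ± 5.61 CPM in the VTA (SD, n = 9) and 20.7 ± 2.53 CPM in PrL (SD, n = 10), a log2 difference of 0.63 (SE 0.08, edgeR adjusted p = 1.7e-09) that was 0.47 with the GC offset (adjusted p = 8.57e-07).

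**Figure D1:**
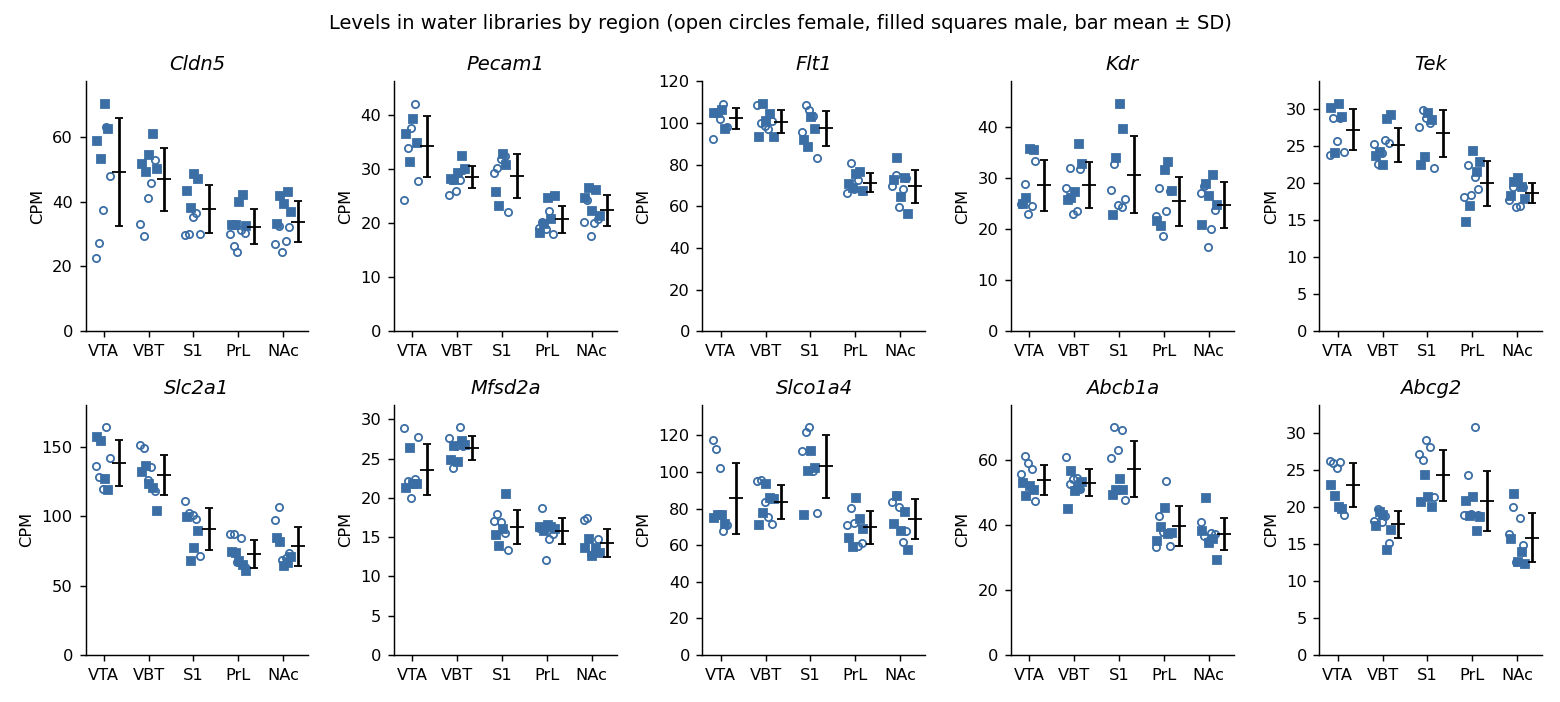
Each panel plots 1 gene in CPM for the 48 water libraries by region, with open circles for females, filled squares for males, and a bar for the mean and SD of a region. Slc2a1 and Mfsd2a stand higher in VTA and VBT than in the other regions, whereas the Slco1a4 mean is highest in S1 and Abcg2 is lower in VBT than in S1, a difference that did not pass with the GC offset.

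Of the 100 tests of a gene in a pair of regions, 62 passed, and 76 with the replicate number as a block. The counts were 10 of 10 genes for VBT against NAc, 9 for S1 against NAc, 8 for VTA against NAc, 8 for VBT against PrL, 7 for VTA against PrL and 6 for S1 against PrL. Over all genes 67.8%, 53.3%, 64.8%, 68.4%, 66.5% and 37.3% passed in those pairs, in that order. All of these calls on the 10 genes were higher in VTA, VBT or S1, a direction taken by 34.1%, 27%, 34.7%, 34.4%, 35.1% and 18.3% of all genes. Between VBT and S1 5 genes passed (68% of all genes), between VTA and S1 4 (67.6%), between PrL and NAc 3 (50.3%) and between VTA and VBT 2 (52.5%). The median difference of the 10 genes was 0.59 on the log2 scale for VBT over NAc and 0.54 for VTA over NAc, with -0.0021 and 0.03 over all genes.

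The GC offset changed the place of the VTA. With it 8 of the 10 genes were called between VTA and VBT, all lower in the VTA (61.8% of all genes called), of which Mfsd2a alone was called without it. There the VTA minus VBT difference was -0.34 for Flt1 and -0.42 for Slco1a4 on the log2 scale. Between VTA and S1 6 genes were called, 2 higher and 4 lower in the VTA (66.1%), 3 of them also without the offset. The calls over PrL and NAc changed less: the same 7 genes were higher in the VTA than in PrL (66.8%), and 9 were higher than in NAc (63.6%), 8 of them also without the offset.

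Markers of pericytes, the cells that wrap capillaries, varied between regions as well. In the water libraries 7 pericyte markers summed to 283 to 347 CPM in the VTA, 274 to 352 CPM in VBT and 287 to 377 CPM in S1, against 204 to 312 CPM in PrL and 212 to 282 CPM in NAc. In the VTA 4 smooth muscle markers summed to 43.3 to 211 CPM, against 15.6 to 59.0 CPM elsewhere, and 6 fibroblast markers to 46.0 to 217 CPM, against 18.7 to 154 CPM elsewhere. The part of these cells in the region differences was not tested.

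Levels of different genes were compared per kilobase of exon. In VTA water libraries Slc2a1 had 39.6 ± 4.79 CPM per kb (SD, n = 9) and Cldn5 34.7 ± 12 CPM per kb, which overlap. Slco1a4 followed with 13.3 ± 3.0 CPM per kb, Mfsd2a with 10.5 ± 1.4 and Abcb1a with 9.83 ± 0.86, whose spreads overlap too. Flt1 (7.57 ± 0.39 CPM per kb), Tek (5.76 ± 0.59) and Pecam1 (5.49 ± 0.90) came next, and Kdr (3.17 ± 0.56) and Abcg2 (2.82 ± 0.37) were lowest. The counting assigns a read to annotated exons, so that genes whose annotation holds long, little used exons appear lower. Abcb1a shares long stretches of sequence with its paralog Abcb1b, and Slco1a4 with other Slco1a genes, so that their levels are uncertain to the extent that reads were split or dropped. Abcb1b, the second mouse P-glycoprotein gene, had 2.53 to 5.38 CPM as group means of the water libraries. The strand setting of the counting is not given, but the antisense partners with shared exons were near 0 (means of 0.0357 CPM for Gm12868 at Slc2a1 and 0.119 CPM for Gm42686 at Abcb1a).

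Related genes of the vessel wall were described in the water libraries beside the 10. Of 78 other blood-brain barrier genes in 8 lists, 51 were called higher and 9 lower in VBT than in NAc (median log2 difference 0.40), where 67.8% of all genes passed, 34.1% as higher in VBT. In the VTA against PrL 42 were called higher and 10 lower (median 0.29), where 66.5% of all genes passed, 35.1% as higher in the VTA. The junction cadherin Cdh5 was 0.58 higher in the VTA than in NAc (log2, SE 0.10, edgeR adjusted p = 1.5e-06, and 0.46 with the GC offset), and the tight junction gene Ocln 0.58 higher in VBT than in PrL (SE 0.11, adjusted p = 5.8e-06). Vegfa, which signals through Kdr and binds Flt1, was 0.47 higher in VBT than in NAc (SE 0.07, edgeR adjusted p = 8.0e-08). Angpt2, a context-dependent antagonist of Tek, was 2.22 higher in VBT than in S1 (SE 0.23, adjusted p = 1.6e-11), whereas Tek differed by -0.03 there (SE 0.07, adjusted p = 0.77). Angpt1, the activating ligand of Tek, was 1.41 higher in the VTA than in S1 (SE 0.17, adjusted p = 5.9e-10), and 1.47 with the GC offset. Lef1, a Wnt effector, had 86.1 ± 23.2 CPM in VBT female water (SD, n = 5) and 3.62 to 6.44 CPM as group means outside VBT. Thalamic relay neurons are also known to express Lef1.

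In the VTA, 4 of the 10 genes passed the test between fentanyl and water in males. Slco1a4, Abcg2 and Abcb1a were higher in exposed males and Cldn5 was lower, and the first 3 also passed in the mean over the sexes. All of these calls were lost with the GC offset, where 1.7% of all genes passed in males and 2.22% in the mean, and also with VTA male water 3 kept. Over all 19822 genes tested 22% passed in males (11% higher and 11% lower with fentanyl) and 23.1% in the mean over the sexes (11.1% higher and 12% lower). None of the 10 genes passed edgeR's test in VTA females, where 0% of genes did, or in the test of a sex difference, also 0%. At an unadjusted p under 0.05 stood 3 of the 10 in females and 1 of the 10 for the sex difference, beside 2518 and 2256 of all genes. DESeq2 called none of the 10 in either, and 86 and 6 of all genes.

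Slco1a4 had 74.9, 76.5, 76.8 and 71.6 CPM in the 4 VTA male water libraries and 90.8, 108, 100, 104 and 103 CPM in the male fentanyl libraries. The male groups did not overlap, and the rise was 1.38-fold (log2 0.47, SE 0.12, edgeR adjusted p = 0.0123), and 0.30 on the log2 scale with the GC offset (adjusted p = 0.103). Female water libraries had 117, 112, 102, 67.6 and 71.3 CPM, and female fentanyl libraries 106, 102, 117, 102 and 105 CPM. Female water 4 and 5, the libraries with a high GC trend, thus lay near the male water libraries, and female water 1 to 3 near the fentanyl libraries. The female difference was 0.16 (SE 0.12, edgeR adjusted p = 0.571).

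Abcb1a had 53.0, 48.8, 52.1 and 50.6 CPM in male water and 56.4, 61.9, 57.7, 55.6 and 53.9 CPM in male fentanyl libraries. These groups did not overlap either, with a log2 difference of 0.20 (SE 0.07, edgeR adjusted p = 0.0493), which was 0.14 with the GC offset (adjusted p = 0.272). In females it had 55.8, 61.1, 59.1, 57.1 and 47.4 CPM with water and 73.2, 64.8, 68.5, 58.7 and 58.4 CPM with fentanyl, a difference of 0.19 (SE 0.07, adjusted p = 0.290). The mean over the sexes passed (0.19, SE 0.05, edgeR adjusted p = 0.00707), but not with the offset (0.13, adjusted p = 0.157).

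Abcg2 had 23.0, 21.5, 20.1 and 19.7 CPM in male water and 24.7, 28.4, 26.7, 20.6 and 25.7 CPM in male fentanyl libraries. Male fentanyl 4 fell within the water range. The log2 difference was 0.29 in males (SE 0.10, edgeR adjusted p = 0.0368) and 0.29 in females (SE 0.09, adjusted p = 0.286), with a mean of 0.29 that passed (SE 0.07, adjusted p = 0.00451). The GC offset brought them to 0.10 in males (adjusted p = 0.572) and 0.12 in the mean (edgeR adjusted p = 0.299). Female values were 26.2, 25.9, 25.3, 26.1 and 18.9 CPM with water and 33.8, 30.4, 31.5, 30.0 and 25.6 CPM with fentanyl, so that female fentanyl 5 alone lay inside the water range.

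Cldn5 was lower in exposed males. It had 58.6, 53.1, 70.2 and 62.5 CPM in male water and 34.1, 46.5, 37.2, 34.5 and 35.3 CPM in male fentanyl libraries, with no overlap. The log2 difference was -0.67 (SE 0.21, edgeR adjusted p = 0.0274), and -0.25 with the GC offset (adjusted p = 0.378). Over 11 settings of the male fit Cldn5 was called in 6, Slco1a4 in 9, and Abcb1a and Abcg2 in 7 each. Female water libraries had 22.8, 27.2, 37.5, 63.0 and 47.8 CPM, and female fentanyl libraries 45.2, 41.6, 41.7, 46.6 and 35.2 CPM, a difference of 0.07 (SE 0.19, adjusted p = 0.910). The 2 highest female water values again belonged to libraries 4 and 5. The test of the sex difference gave -0.74 (SE 0.28, adjusted p = 0.420), and did not pass. It passed for Cldn5 and Slco1a4 once female water 4 and 5 were left out, an alternative chosen after seeing the data, but those libraries hold the 2 highest Cldn5 and the 2 lowest Slco1a4 values of the group, so that nothing is read from it.

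The other 6 genes did not pass in any VTA contrast. Slc2a1 had 157, 154, 127 and 119 CPM in male water and 132, 110, 119, 121 and 103 CPM in male fentanyl libraries, and 120 to 164 CPM with water against 118 to 129 CPM with fentanyl in females. These groups overlapped in both sexes. Slc2a1 came closest of the 6, with a mean log2 difference of -0.20 (SE 0.07, edgeR adjusted p = 0.0518). Mfsd2a differed by -0.11 (SE 0.11, adjusted p = 0.516), and Flt1, Kdr, Tek and Pecam1 by 0.05 to 0.08 (adjusted p from 0.204 to 0.735).

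**Figure D2:**
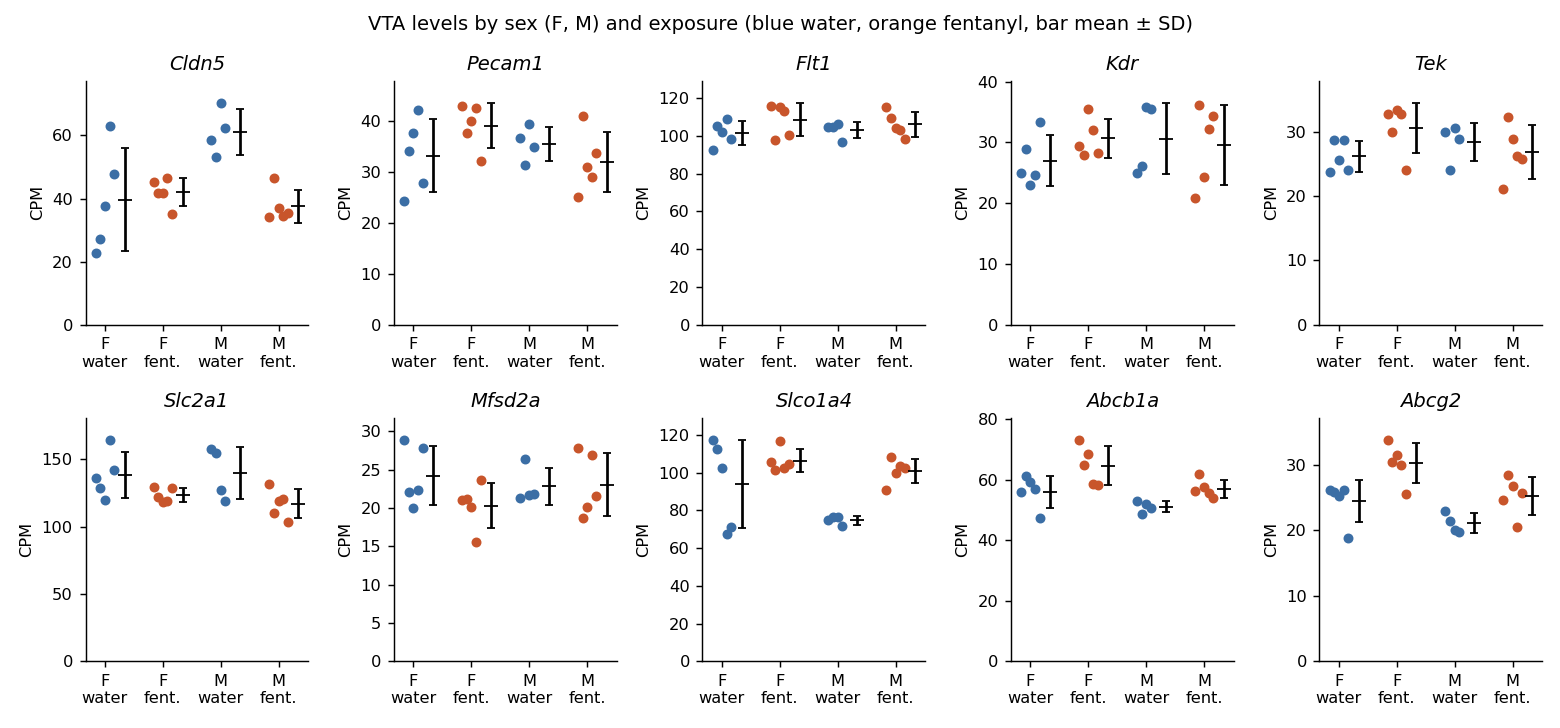
Each panel plots 1 gene in CPM for the VTA libraries by sex and exposure, blue for water and orange for fentanyl, with bars for the mean and SD. In males Slco1a4 and Abcb1a lie higher with fentanyl and Cldn5 lower without overlap, while the female water libraries of Slco1a4 fall into a high and a low set.

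These VTA differences were correlated with the base composition of the genes. Across the 10 genes the mean log2 difference and GC content had a Pearson r of -0.97 and a Spearman rho of -0.90, and across all 19802 genes with a GC content rho was -0.60. With the offset for GC content rho over all genes was -0.06, while the 10 genes still gave an r of -0.77 and a rho of -0.82. With that offset none of the 10 passed in males or in the mean over the sexes, and 337 and 441 of all genes did in place of 4355 and 4580. In the mean over the sexes Cldn5 went from -0.30 to 0.00, Slco1a4 from 0.31 to 0.18 (edgeR adjusted p = 0.187) and Slc2a1 from -0.20 to -0.07 (adjusted p = 0.745). In VTA males the exposure groups share no value of the GC trend, so exposure and trend cannot be told apart there. Keeping VTA male water 3 also left none of the 10 called in the VTA. Leaving out any 1 of the 9 male VTA libraries brought the male count from 4 to 1 or 2. Over the 19 fits without 1 library, Slco1a4 stayed called in males in 19, Abcg2 in 12, Cldn5 in 12 and Abcb1a in 6. In the mean over the sexes Slco1a4, Abcb1a and Abcg2 each stayed in all 19.

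**Figure D3:**
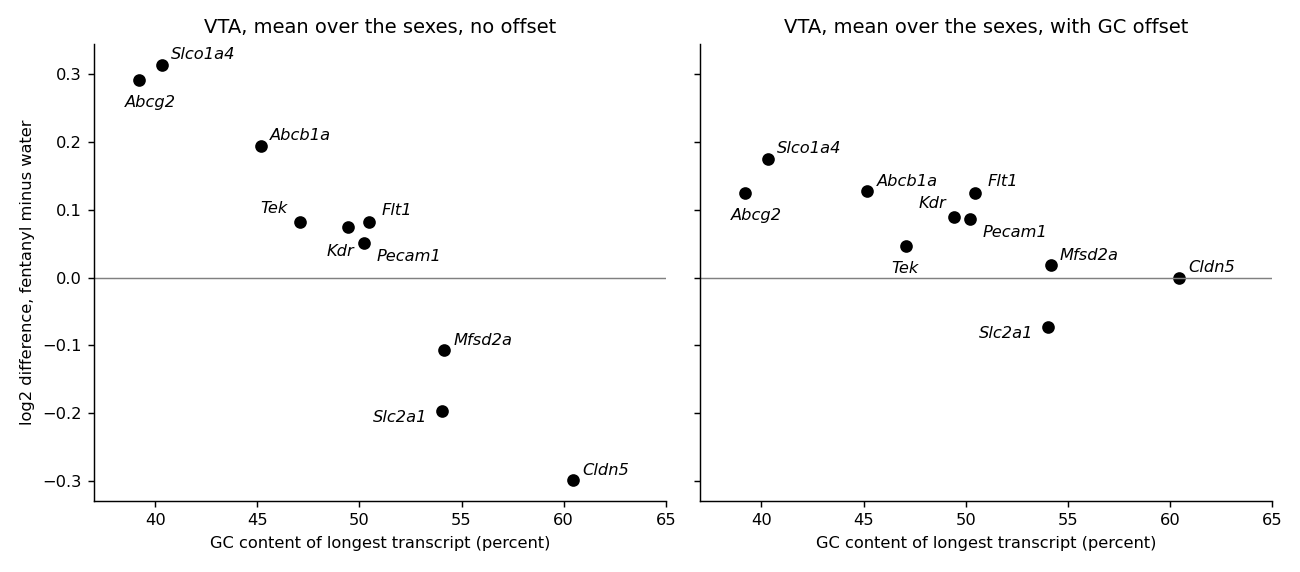
The points are the 10 genes, with the GC content of the longest transcript in percent on the horizontal axis and the mean log2 difference between fentanyl and water in the VTA on the vertical axis, without an offset at left and with the GC offset at right. At left the genes descend from 0.31 for Slco1a4 to -0.30 for Cldn5, and at right they lie between -0.07 and 0.18.

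**Figure D4:**
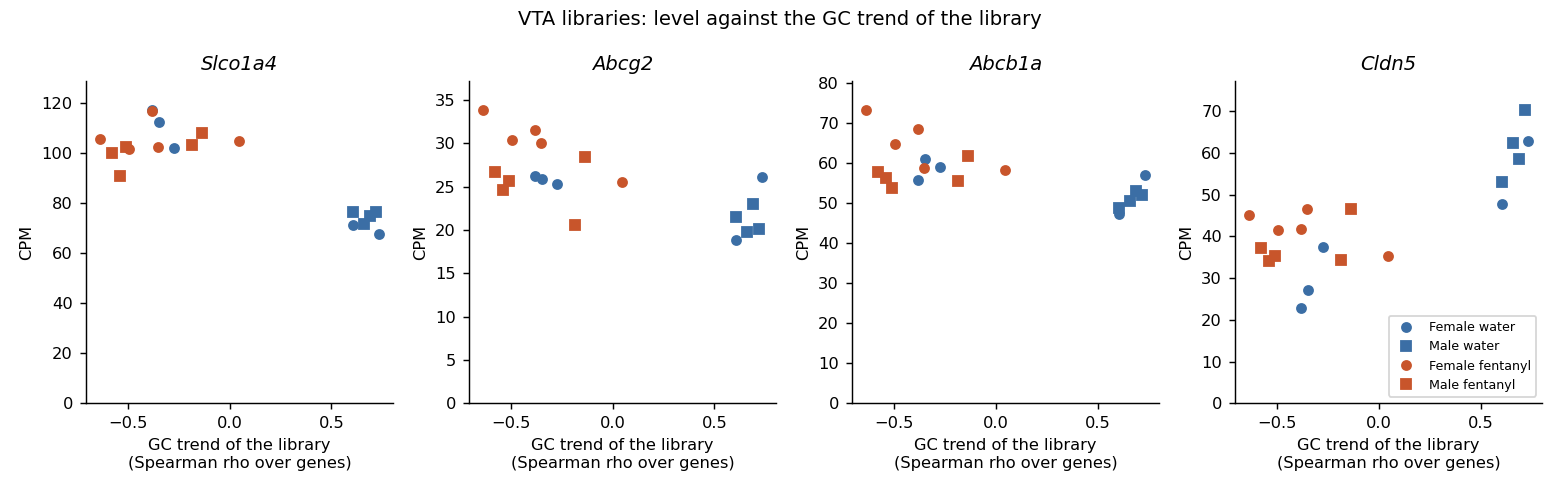
Each point is a VTA library, with its GC trend (Spearman rho over genes) on the horizontal axis and its level in CPM on the vertical axis, blue for water and orange for fentanyl. The 6 water libraries with a trend over 0.6 are the lowest for Slco1a4 and the highest for Cldn5, and the other 3 water libraries lie at 102 to 117.3 CPM for Slco1a4, with female water 1 just above the highest fentanyl library (116.9 CPM). For Cldn5 female water 1 and 2, at 22.8 and 27.2 CPM, lie below every fentanyl library, of which the lowest has 34.1 CPM.

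Markers of other cells gave these values beside the VTA results. The summed level of 7 pericyte markers was 284 to 332 CPM in VTA male water and 298 to 410 CPM in male fentanyl libraries, and that of 5 blood genes 74.0 to 248 and 82.6 to 490 CPM. The mean log2 level of 16 endothelial identity genes was 3.98 ± 0.11 (SD, n = 4) in male water and 3.94 ± 0.16 (SD, n = 5) in male fentanyl libraries (exact permutation test, two-sided, p = 0.746). With the blood genes as a covariate 2 of the 4 male calls stayed, those of Slco1a4 and Cldn5, and with the endothelial list all 4 did. Of all 19822 genes these fits called 4173 and 4383 in males, against 4355 as reported. In females pericyte markers summed to 283 to 347 CPM with water and 338 to 429 CPM with fentanyl, and 5 microglia markers to 200 to 239 and 238 to 262 CPM. The mean log2 level of the microglia markers did not overlap in females, at 4.98 to 5.25 with water and 5.26 to 5.397 with fentanyl (exact permutation test, two-sided, p = 0.00794, the smallest this design can give, adjusted p = 0.423). The part of pericytes and microglia in the VTA result was not tested. Other measures of the male libraries moved with exposure too, none past the threshold after adjustment over the 160 tests. Their length trend, the rho over genes with exon length, was -0.298 to -0.175 with water and -0.040 to 0.258 with fentanyl (exact permutation test, two-sided, p = 0.0159, adjusted p = 0.423). Mitochondrial genes held 4.27% ± 0.560 of reads (SD, n = 4) with water and 5.35% ± 0.433 (SD, n = 5) with fentanyl (exact p = 0.0317, adjusted p = 0.508), and 25650 to 27111 genes were detected with water against 24701 to 25980 with fentanyl (exact p = 0.0476, adjusted p = 0.508). The part of mitochondrial reads and detected genes in the VTA result was not tested.

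Of the 78 other barrier genes, without the GC offset, 9 were called higher and 6 lower in VTA males, and 12 higher and 5 lower in the mean over the sexes, with a median of 0.03 in the mean and 0.00 over all genes. These are 19.2% and 21.8% of the 78, against 22% and 23.1% of all genes, so the list stood near the background. Of the 15 male calls 2 stayed with the GC offset, and of the 17 mean calls 2. These are 2.56% of the 78 in each, near the 1.7% and 2.22% of all genes. All were rises: Adgrl4 in both (0.28 in males, adjusted p = 0.0453, and 0.22 in the mean, adjusted p = 0.0173, edgeR), Jam2 in males (0.34, adjusted p = 0.0431) and Cav2, a caveolin, in the mean (0.25, adjusted p = 0.0421). Without the offset the rises were led by Adgrl4, an adhesion receptor of endothelium (log2 0.34, SE 0.06, edgeR adjusted p = 0.0011), and Jam2, a junctional adhesion molecule (0.26, SE 0.05, adjusted p = 0.0026). Lrp1, an endocytic receptor that neurons and glia express as well, was lower (-0.39, SE 0.05, adjusted p = 0.0008, and -0.18 with the GC offset, adjusted p = 0.0506), as was the amino acid carrier Slc7a5 (-0.19, SE 0.05, adjusted p = 0.0063, and -0.02 with the offset, adjusted p = 0.934). In males Plvap, a gene of fenestrated vessels, was 0.53 lower (SE 0.15, adjusted p = 0.0149, and -0.11 with the offset, adjusted p = 0.729). Ocln rose by 0.24 in the mean (SE 0.07, adjusted p = 0.0219), and differed by 0.11 with the offset (adjusted p = 0.510). Cdh5 (-0.01), Vegfa (-0.16), Angpt1 (0.35), Angpt2 (-0.02), Abcb1b (0.10) and Lef1 (0.04) did not pass there (edgeR adjusted p from 0.140 to 0.973).

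In S1 all 10 genes had a negative mean difference between fentanyl and water (9 with the GC offset, where Abcg2 was at 0.00), while 50.6% of all genes had a positive one, and the median was -0.19 on the log2 scale against 0.00 over all genes. Tek and Abcb1a passed the test in the mean over the sexes, 2 of 10 where 1.03% of all 19748 genes passed and 0.213% passed with a lower level. None of the 10 passed in S1 females (0.142% of genes), in males (0%) or in the test of a sex difference (0%), with 6, 2 and 1 of the 10 at an unadjusted p under 0.05, beside 2752, 1412 and 817 of all genes. DESeq2 called Abcb1a in S1 females, 1 of 406 genes it called there.

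Tek had 27.5, 29.8, 28.7, 28.0 and 21.9 CPM in S1 female water and 21.4, 18.5, 27.4, 21.7 and 23.3 CPM in S1 female fentanyl libraries. In males it had 22.5, 23.5, 29.4 and 28.5 CPM with water and 20.7, 23.5, 17.7, 22.0 and 18.4 CPM with fentanyl. The groups overlapped in both sexes. Tek fell by 0.30 in the mean over the sexes (log2, SE 0.07, edgeR adjusted p = 0.0475).

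Abcb1a had 60.6, 70.0, 63.0, 69.3 and 47.7 CPM in S1 female water and 44.9, 44.5, 56.5, 52.1 and 47.1 CPM in S1 female fentanyl libraries. Male water libraries had 49.3, 50.8, 54.1 and 50.8 CPM and male fentanyl libraries 46.5, 47.9, 40.4, 42.9 and 46.2 CPM, with no overlap. Female water 5 was the one female water library within the fentanyl range. Abcb1a fell by 0.26 in the mean over the sexes (log2, SE 0.06, edgeR adjusted p = 0.0460).

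Slco1a4 and Cldn5 did not pass in S1. Slco1a4 had 112, 122, 124, 100.6 and 77.7 CPM in S1 female water and 71.5, 61.8, 103, 78.3 and 102 CPM in female fentanyl libraries, which overlap, with a mean log2 difference over the sexes of -0.29 (SE 0.12, edgeR adjusted p = 0.240). Cldn5 had 43.4, 38.2, 48.6 and 47.1 CPM in S1 male water and 34.2, 39.2, 36.8, 31.5 and 24.99 CPM in male fentanyl libraries, where male fentanyl 2 lay inside the water range. The Cldn5 difference was -0.39 in males (SE 0.11, edgeR adjusted p = 0.617) and 0.26 in females (SE 0.10, adjusted p = 0.250). The test of that sex difference gave -0.65 (adjusted p = 0.957), so Cldn5 had the same sign of sex difference in S1 as in the VTA and passed in neither. The S1 water libraries already differed by sex, at 38.2 to 48.6 CPM in males and 29.8 to 36.5 CPM in females. The part of that difference was not tested.

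Neither S1 call was firm. Each stayed in 5 of 19 fits that left out 1 library. With all libraries kept, neither passed once the blood genes, the endothelial list or the share of reads outside exons entered the fit. Of all genes these fits called 0, 59 and 1 in the S1 mean, in that order, against 203 as reported. Both stayed without female fentanyl 3, female water 5, male fentanyl 5 or male water 1, Abcb1a alone without female water 1 and Tek alone without male fentanyl 4, and leaving out any other S1 library ended both calls. With the GC offset Tek stayed called, at -0.28, and Abcb1a missed the threshold, at -0.22. Summed pericyte markers were 287 to 374 CPM in S1 female water against 230 to 322 CPM in female fentanyl libraries, and 287 to 377 against 247 to 323 CPM in males. Summed levels of 6 astrocyte markers were 5527 to 6479 CPM with water against 4131 to 5847 CPM with fentanyl in females. The GC trend was -0.263 ± 0.213 (SD, n = 5) in S1 female water and 0.199 ± 0.216 (SD, n = 5) in female fentanyl libraries (exact permutation test, two-sided, p = 0.0238, adjusted p = 0.476). Their length trend was 0.048 to 0.356 with water and -0.459 to 0.022 with fentanyl, with no overlap (exact permutation test, two-sided, p = 0.00794, adjusted p = 0.423). With the length offset Tek stayed called, at -0.29, and Abcb1a missed the threshold, at -0.24. The mean log2 level of the astrocyte markers in males was 8.17 with water and 7.98 with fentanyl (exact permutation test, two-sided, p = 0.159). That of the 16 endothelial identity genes was 3.91 with water and 3.82 with fentanyl in females (exact p = 0.397). In males it was 3.94 and 3.79 (exact p = 0.111). The part of pericytes and astrocytes in the S1 result was not tested. Of the other barrier genes Ptprb, a phosphatase that restrains Tek signalling, was lower (-0.36, SE 0.08, edgeR adjusted p = 0.0258). It was 1 of 78 called (1.28%), near the 1.03% of all genes, and 60 of the 78 had a negative difference. Ptprb missed the threshold with reads outside exons (adjusted p = 0.0697), blood genes (0.0832) or the endothelial list (0.0978) in the fit. The GC offset kept Ptprb and added Vwf, the von Willebrand factor gene (-0.57, edgeR adjusted p = 0.0357), where 1.1% of all genes passed. Angpt2 differed by -0.43 (SE 0.15, adjusted p = 0.160).

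In VBT, PrL and NAc none of the 10 genes passed in any contrast. In edgeR's test no gene passed in VBT (0% of 18923 genes in females, males, their mean and the sex difference). At an unadjusted p under 0.05 stood 1487, 1646, 1606 and 1520 genes in those 4 contrasts, and DESeq2 called 31, 52, 3 and 109. Of the 10 genes 1, Tek, had an unadjusted p under 0.05 in edgeR's test, in males (log2 -0.17, adjusted p = 0.490) and in the mean (-0.12, adjusted p = 0.537). In PrL 0.021% of genes passed in females, 0% in males, 0.697% in the mean and 0% for the sex difference. All 10 genes had a negative mean difference in PrL, from -0.24 for Kdr (SE 0.10, edgeR adjusted p = 0.208) to -0.02 for Slc2a1 (SE 0.08, adjusted p = 0.943), while 47.2% of all genes had a positive one. With the GC or the length offset 5 of the 10 were positive there, Pecam1, Slc2a1, Mfsd2a, Abcg2 and Cldn5. The whole contrast moved as well. Of all genes 133 were called without an offset, 27 of them higher with fentanyl. The GC offset gave 731, with 589 higher, and the length offset 79, with 40 higher. The share of reads outside exons moved with exposure in PrL, at 11.5% to 13.3% with water and 9.48% to 11.2% with fentanyl in females (exact permutation test, two-sided, p = 0.00794, adjusted p = 0.423) and 12.01% to 13.7% and 10.4% to 12.2% in males (exact p = 0.0159, adjusted p = 0.423). With that share in the fit all 10 stayed negative, and genes called in the PrL mean went from 133 to 0 and those at an unadjusted p under 0.05 from 3638 to 1385. Tek had 16.9 ± 0.601 CPM in PrL female fentanyl (SD, n = 5) and 19.8 ± 1.80 CPM in female water libraries (SD, n = 5) with no overlap, and did not pass (log2 -0.19, SE 0.10, edgeR adjusted p = 0.539). In NAc 0% of genes passed in females, 0.662% in males, 0% in the mean and 0% for the sex difference. For that sex difference 512 genes passed with the GC offset, 266 with the length offset and 601 with blood genes in the fit. In the NAc mean 394 passed with reads outside exons in the fit. Unadjusted p-values under 0.05 were held by 3 of the 10 in the PrL mean, 1 in NAc males and 1 in the NAc mean, beside 19.1%, 17.6% and 12.03% of all genes. The furthest from 0 in NAc was Kdr in males, at -0.34 (SE 0.13, edgeR adjusted p = 0.166). Lrp1 was the one other barrier gene called in NAc (-0.49 in males, SE 0.11, edgeR adjusted p = 0.0421), in a contrast where 0.241% of genes passed with a lower level. In NAc males the length trend was -0.212 to 0.378 with water and -0.445 to -0.018 with fentanyl (exact permutation test, two-sided, p = 0.0238, adjusted p = 0.476), and reads outside exons 13.7% to 15.4% and 12.1% to 14.3% (exact p = 0.0397, adjusted p = 0.508). Summed fibroblast markers were 26.6 to 69.1 CPM with water and 17.7 to 35.9 CPM with fentanyl, and their part was not tested. Genes called in NAc males went from 129 to 1036 with the length offset and to 316 with reads outside exons in the fit. They went to 1298 with the GC offset, 574 with blood genes and 0 with the replicate number as a block. Of the 129 genes 82 were higher with fentanyl, as were 1180 of the 1298. Lrp1 missed the threshold with the length offset, at -0.27 (edgeR adjusted p = 0.0531), and with reads outside exons, at -0.44 (adjusted p = 0.0582). It also missed with the replicate block (adjusted p = 0.152) and the endothelial list (adjusted p = 0.0646). Its call stayed with the GC offset (adjusted p = 0.0439) and with blood genes (adjusted p = 0.0202). Kdr was at -0.19 with the length offset (adjusted p = 0.419) and passed with reads outside exons in the fit, at -0.50 (adjusted p = 0.0414). DESeq2 called none of the 10 genes in these 3 regions. Of all genes it called 45, 32, 778 and 0 in PrL and 16, 920, 110 and 486 in NAc. These counts are for females, males, their mean and the sex difference.

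**Figure D5:**
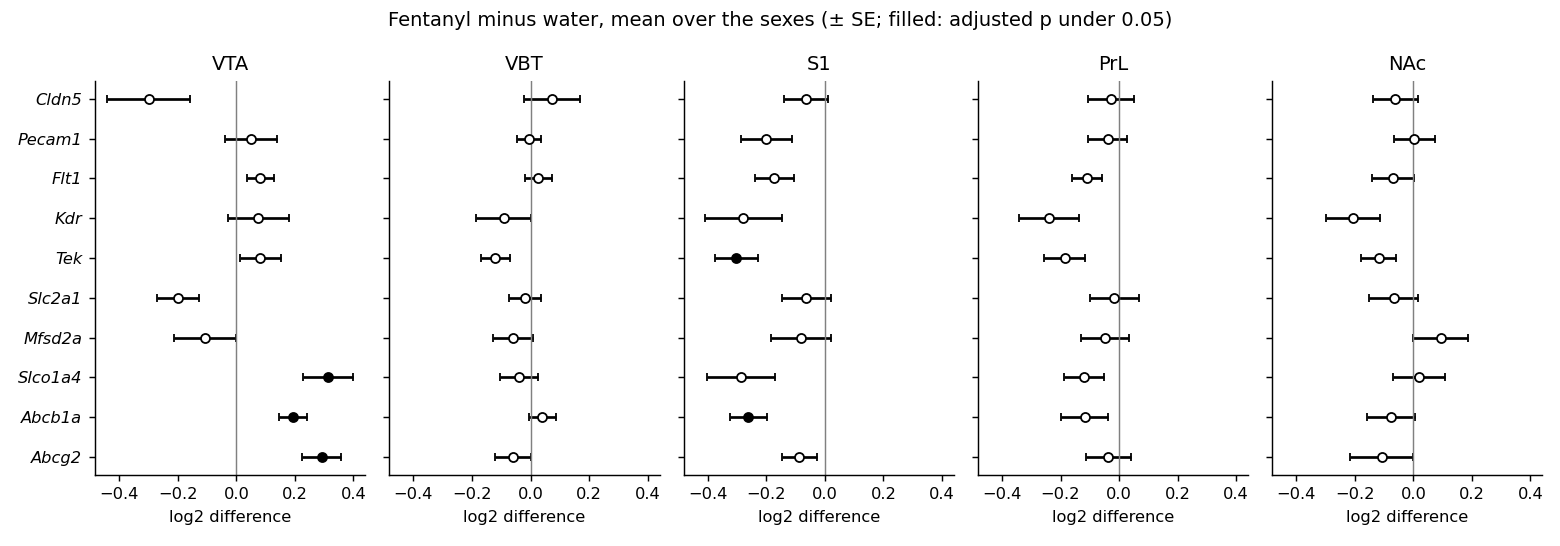
Each panel plots the mean log2 difference between fentanyl and water over the sexes with its SE for the 10 genes in 1 region, filled where the adjusted p was under 0.05. Slco1a4, Abcb1a and Abcg2 are filled to the right of 0 in the VTA, and Tek and Abcb1a to the left of 0 in S1, of which the GC offset kept the call of Tek alone.

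The exposure difference was also compared between regions in 1 fit over all 98 libraries, a test chosen after seeing the data. It differed over the 5 regions for Slco1a4, Abcb1a, Tek and Abcg2, 4 of 10 genes where 18.9% of 22326 genes passed. With the GC offset none of the 10 passed, where 4.27% of genes did. Between VTA and S1 alone 5 genes passed (19% of all genes): Slco1a4 by 0.62 (edgeR adjusted p = 0.000259), Abcb1a by 0.47, Tek by 0.40, Abcg2 by 0.40 and Flt1 by 0.27 on the log2 scale. With the GC offset 3 of them passed, where 3.47% of genes did: Slco1a4 by 0.43 (adjusted p = 0.0135), Abcb1a by 0.38 (adjusted p = 0.0292) and Tek by 0.35 (adjusted p = 0.0244). In the other pairs with the VTA 2 of the 10 passed against VBT (14% of all genes), 2 against PrL (11%) and 1 against NAc (11.5%). In these 3 pairs none of the 10 passed with the GC offset, where 0.833%, 1.92% and 1.78% of genes did.

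The 10 genes varied together from library to library, in part. After the group means were taken out, 39 of the 45 pairs had a positive Pearson r over the 98 libraries, with a median of 0.30 and 10 pairs over 0.5. Pecam1 and Tek had the highest r (0.77), followed by Flt1 and Abcb1a (0.67) and by Abcb1a and Abcg2 (0.61). Slc2a1 and Mfsd2a, both carriers high in VTA and VBT, had 0.58. Cldn5, the richest in GC, and Slco1a4, among the poorest, had the lowest (-0.28), and their r with the GC trend of the library was 0.49 and -0.33. These points share library, depth and composition, and the values are descriptions. Of 12066 other genes with a mean of at least 5 CPM, those most like the mean of the 10 included Cdh5 (r = 0.78), Epas1 (0.75), Axl (0.70), Gja1 (0.69), Itpripl2 (0.68), Ptprb (0.68), Itga1 (0.67), Tgfbr2 (0.67) and Adgrl4 (0.67). Gja1 is abundant in astrocytes, whose end feet cover the capillaries.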

How the data were processed

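Expression was measured by RNA sequencing in 99 libraries, each made from 10 ng of RNA with a SMART-Seq v4 kit, per the labels' protocols. The authors deposited raw read counts per Ensembl gene for each library; the submitters' processing notes name HTSeq and GRCm38, and the aligner, versions and strand setting are not given in the sources used here. Lines that name no gene were left out; they held 16.2% to 24.0% of each library's total, with reads outside exons alone at 9.48% to 17.0%. The members and lists were chosen with earlier results of these data known. The left-out library was chosen by its number of detected genes, under 10000.

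Counts were filtered with filterByExpr, scaled by TMM and tested within each region with edgeR 4.0.16 (robust quasi-likelihood fit, R 4.3.3) in 4 groups of sex and exposure, for females, males, their mean and the sex difference. Regions were compared in the 48 water libraries. Genes were called at a Benjamini-Hochberg adjusted p under 0.05, with all tested genes in the adjustment. Single measures of libraries were compared by exact permutation tests in Python 3.11.15. The fits were tested on simulated data. Alternatives were DESeq2 1.42.0 and its size factors, no filter, GC and exon length offsets, covariates for blood genes, endothelial genes and reads outside exons, the replicate number as a block, and leaving out each library. Beside the 10 genes, the text names listed genes that are ligands, paralogs or junction partners of the 10, up to 2 listed genes called in each direction with the smallest adjusted p in a contrast, and the 10 genes most like the mean of the 10, of which 1 is not reported here.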

Additional observations from a re-analysis of the deposited data

Results flagged for a closer look

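Of 200 checks of a gene in a group of 4 or 5 libraries, 7 found a library far from the others, where chance gives about 10 (1 in 20). Slco1a4 had 116.9 CPM in VTA female fentanyl 3 (102 to 106 CPM in the others), Abcg2 had 18.9 CPM in VTA female water 5 (25.3 to 26.2 CPM), and Cldn5 had 46.5 CPM in VTA male fentanyl 2 (34.1 to 37.2 CPM). Mfsd2a had 26.4 CPM in VTA male water 2 (21.3 to 21.8 CPM), and Tek had 21.9 CPM in S1 female water 5 (27.5 to 29.8 CPM). PrL male fentanyl 2 stood apart for both junction genes, with 41.0 CPM of Cldn5 (28.5 to 31.7 CPM) and 24.5 CPM of Pecam1 (18.4 to 19.6 CPM).

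The mean exposure difference also differed between the VTA and other regions, by a test chosen after seeing the data; these comparisons share the VTA libraries. On the log2 scale Abcg2 and Slco1a4 each differed by 0.358 between VTA and VBT. With the GC offset these were 0.19 and 0.22 (edgeR adjusted p = 0.533 and 0.426). Between VTA and S1 the differences were 0.617 for Slco1a4, 0.473 for Abcb1a, 0.402 for Tek, 0.396 for Abcg2 and 0.272 for Flt1. Slco1a4 differed by 0.424 and Abcb1a by 0.303 between VTA and PrL, and Abcg2 by 0.402 between VTA and NAc. With the GC offset these were 0.20, 0.17 and 0.21 (edgeR adjusted p = 0.444, 0.528 and 0.431), and against S1 Slco1a4, Abcb1a and Tek still passed. Of all 22326 genes 3125 passed between VTA and VBT, 4234 between VTA and S1, 2446 between VTA and PrL and 2558 between VTA and NAc, and 186, 774, 429 and 398 with the GC offset.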

How the results depend on the processing

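The count of the 10 genes called in VTA males (4) was 1 without a filter, 2 with the blood genes as a covariate, 0 with the GC offset and 0 with VTA male water 3 kept, and 1 to 4 without 1 library. In the VTA mean (3) it was 0 with the GC offset, 0 with that library kept, 5 with reads outside exons in the fit, and 3 to 4 without 1 library. All genes called there went from 4355 to 337 in males and from 4580 to 441 in the mean with the GC offset, and to 42 and 60 with that library kept. In males 3293 of 35648 genes passed without a filter and 4173 of 19822 with the blood genes. In the mean 5705 passed with reads outside exons in the fit. Without VTA female water 4 and 5, an alternative chosen after seeing the data, 2 of the 10 passed for the sex difference (0 as reported), where 1961 of 20207 genes did. In the S1 mean (2) the count was 1 with the GC or the length offset, 0 with blood genes, endothelial genes or reads outside exons in the fit, and 0 to 2 without 1 library. All genes called there went from 203 to 218 with the GC offset and 183 with the length offset. With blood genes, endothelial genes and reads outside exons they went to 0, 59 and 1. In S1 females (0) DESeq2 gave 1, and fits without 1 library 0 to 1. In NAc males (0) reads outside exons in the fit gave 1. The difference between regions in the exposure effect went with the GC offset from 4 genes to 0 over 5 regions and from 5 to 3 between VTA and S1. Tests of region pairs passed 61 to 81 times over the settings (62 as reported). Among differences called as reported or in the alternative, signs turned with libraries of both treatments for Tek in VTA minus S1 (0.11) and Abcb1a in VBT minus S1 (0.12). With the GC offset they turned for Abcg2 in VTA minus VBT (-0.075), Cldn5 in VTA minus S1 (-0.013) and Slco1a4 in VBT minus S1 (0.081). Differences called in neither fit turned with the GC offset too. Examples are Pecam1 in VTA minus VBT (0.12 to -0.10), Abcg2 in VBT minus PrL (-0.19 to 0.06) and Abcb1a in VBT minus S1 (-0.03 to 0.14). The cause was not tested. The shared replicate numbers did not meet the rule for pairing, an r over 0.1 in every pair (mean r of same-numbered libraries -0.0889 to 0.136 over the contrasts). In VTA females all 5 were positive (0.00627 to 0.403, mean 0.136, against -0.0330 for other numbers), and 4 of 5 libraries correlated best with their own number. With the replicate number as a block the counts were 3 in VTA males, 4 in the VTA mean, 0 in the S1 mean and 76 over region pairs.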
